A study of Arabidopsis thaliana with 8 samples.

Results

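The products of the 9 Arabidopsis genes described here, apart from DAF1, act mostly on pectin or belong to families used in the pollen tube wall. The 9 were picked by identifier from the 2958 genes that the authors called different between 2 groups of leaf protoplasts. They are 4 polygalacturonase genes (PGA4, AT3G07820, AT3G07850 and AT2G33160), 3 pectin methylesterase genes (VGD1, VGDH1 and AT5G07430), the multicopper oxidase-like gene sks13 and the F-box gene DAF1. They were picked because of their values in this very comparison, so those values are given as a description. All 9 were in the deposited table, and all 9 were higher in the libraries labelled div1.

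The study used TARGET, a transient assay in which protoplasts, which are leaf cells whose walls were digested away, receive a plasmid that encodes a transcription factor. The factor was DIV1, a MYB-type DNA-binding protein. Rosettes of Col-0 plants, 4 weeks old, were digested for 90 min, and the cells took up plasmid with polyethylene glycol and were kept overnight. The authors sequenced poly(A) RNA of 8 such samples, 4 titled div1 and 4 titled ev, a name that the sources do not spell out. All 8 libraries share the Col-0 genotype, the digestion and the transfection, and no label says whether replicates were separate plants or separate transfections, so the deposited p-values measure the spread between these libraries, which may be technical. The data are 1 table of the authors' DESeq2 comparison with no values per library, so the level of a gene in each library, the overlap of the groups and the depth of each library are unknown. DIV1 itself (AT5G58900) stood in the authors' deposited table at a log2 fold change of 7.61 (SE 0.88) and a mean normalised count of 45281, which set the direction used here, since the table does not name its numerator.

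Pectin is the gel of the plant cell wall, and its main polymer, homogalacturonan, is a chain of galacturonic acid that is secreted with methyl esters on it. Pectin methylesterases remove these esters, after which calcium can link chains and stiffen the wall, and polygalacturonases cut the de-esterified chain. Pollen tubes grow at the tip through a wall whose apex is mostly pectin, and pollen expresses its own members of both families. SKU5-similar proteins resemble multicopper oxidases and lie at the cell surface. F-box proteins are the subunits of SCF ubiquitin ligases that select substrates, and DUO1 is the MYB factor that drives the gene programme of the male germline.

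The reference annotation ties most of the 9 genes to pollen. Its coding notes list mature and germinated pollen stages for 6 of them (AT3G07820, AT3G07850, VGD1, AT5G07430, sks13 and DAF1), and 7 with VGDH1, which is noted from the male gametophyte and pollen tube. The notes are not specific to pollen in all of these: AT3G07820 and sks13 are noted from 11 plant structures, DAF1 from 13 and AT5G07430 from 9, with anthesis, petal and globular embryo stages also listed. The notes of PGA4, from 14 plant structures, and of AT2G33160 name no pollen stage or organ, so the pollen label for these 2 genes does not come from the annotation used here.

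Of 18010 genes tested by the authors, 2958 were called at an adjusted p under 0.05, or 16.4%, with 9.14% called higher in div1 and 7.28% lower. The number tested was recovered from the adjusted p-values. Family and list shares below are of annotated genes, of which an unknown number were tested, so they have another base than the 9.14%. Of 27443 annotated protein-coding genes on the nuclear chromosomes, 1635 were called higher. Because the 9 genes were chosen from the called ones, their count is not read against this background. Their deposited log2 fold changes in that table of the authors ran from 4.83 to 7.93 with a median of 6.40, against a median of 0.41 over all called genes, and all 9 were among the 27 highest fitted values. Of the called genes, 42 had a log2 fold change of at least 4, and 9 of these are the genes described here. The 42 are 0.233% of the genes tested, but the fold changes of tested genes that were not called are unknown. The 9 stood much less far forward by adjusted p, at ranks from 900 to 2385, with values from 1.05e-04 to 0.0232 in the authors' deposited table. At an adjusted p under 0.01, where 6.39% of tested genes were called higher, 6 of the 9 remained, and all 9 had a log2 fold change of at least 1, where 3.47% of tested genes were called higher with such a fold.

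These genes were scarce transcripts in both groups. Their mean normalised counts over all libraries in the authors' deposited table lay between 23.1 and 57.6, against a median of 1092 for all called genes. Group means were estimated from that mean and the deposited fold change, with 4 libraries a group. The estimates for div1 ran from 45.9 to 115 normalised counts and those for ev from 0.189 to 3.21. In 4 genes (PGA4, AT3G07820, AT5G07430 and DAF1) the ev estimate was under 0.75, which is 3 counts over 4 libraries, so the fitted fold changes of these 4 are printed as deposited, and neither their size nor their order is fixed. The fitted log2 fold changes of the other 5 ran from 4.83 to 6.40.

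**Figure D1:**
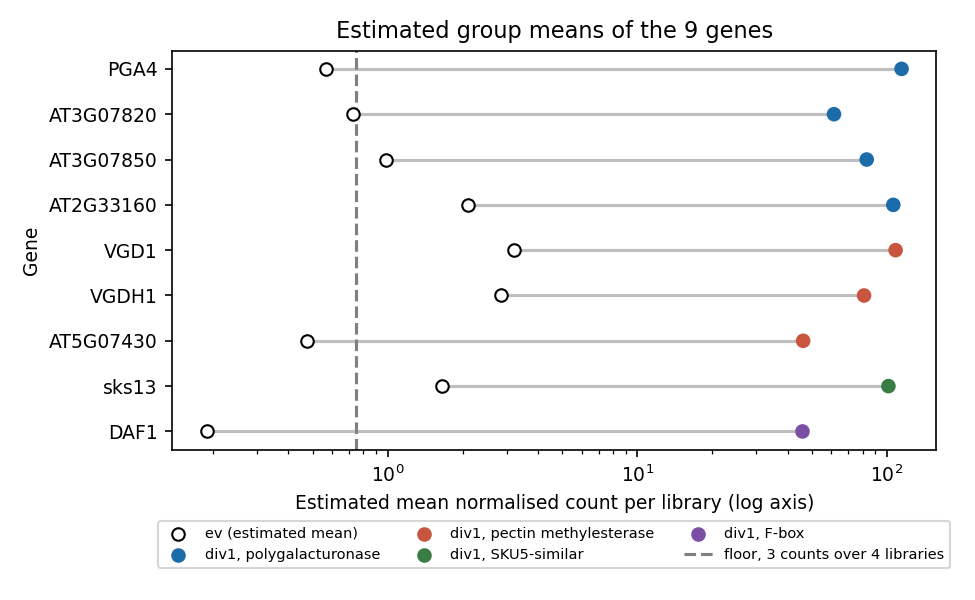
Estimated mean normalised count per library of the 9 genes in the ev libraries (open) and the div1 libraries (filled, coloured by family), on a log axis. The dashed line is the floor of 0.75, and the ev points of PGA4, AT3G07820, AT5G07430 and DAF1 lie left of it, while all div1 points lie between 45.9 and 115.

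Among the polygalacturonases, PGA4 (AT1G02790, chr1:610363-612324, minus strand, TAIR10.1) has 4 exons and is noted as an exopolygalacturonase. Its estimated means were 0.565 normalised counts in ev and 115 in div1, and the authors' deposited table gave a log2 fold change of 7.66, with an SE of 2.38. Its 95% interval, from 2.99 to 12.33 on the log2 scale, left the size of the change very loosely fixed. AT3G07820 (chr3:2496331-2498095, minus strand) had estimated means of 0.726 in ev and 61.4 in div1, with a deposited log2 fold change of 6.40 (SE 1.77). AT3G07850 (chr3:2505546-2507558, minus strand) had nearly the same fold change, 6.40 (SE 1.72) in the authors' deposited table, with estimated means of 0.983 and 83.0. AT2G33160 (chr2:14053404-14056246, plus strand) had the smallest standard error of the 9 in the authors' deposited table, 1.24, around a log2 fold change of 5.66, and its estimated means were 2.1 in ev and 106 in div1. RefSeq notes that the structure of this gene model is inaccurate in TAIR10, so its coordinates and level per kilobase are provisional. It is the 1 gene of the 9 whose span overlaps another gene, AT2G33170, which runs the other way, and since the kit keeps no strand, reads in the overlap cannot be assigned to either. Per kilobase of exon the estimated div1 levels of these 4 genes were 67.9, 40.7, 48.2 and 53.2 normalised counts in the order just given.

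Most of the polygalacturonase family was not called. By glycoside hydrolase family 28 domains the annotation holds 67 such genes, of which 7 were called higher, 2 lower and 58 were not among the called genes, and genes that were not tested cannot be told from genes that were tested and missed the threshold. The 7 are 10.4% of the annotated family, beside 9.14% of tested genes, a share on another base, so the 2 are not ranked. Of the 7, 4 are the chosen ones. Of the other 5 called genes, AT3G14040 was nearest, at a log2 fold change of 3.46 (SE 0.97) and estimated means of 7.41 in ev and 81.5 in div1 from the authors' deposited table. QRT2, which separates pollen grains of a tetrad, rose by 2.49 log2 units (SE 0.65) and AT2G43870 by 1.22 (SE 0.36), as the authors' deposited table gives them. PGAZAT, an enzyme of abscission zones, had far more transcript and went the other way, and the authors' deposited table gave a log2 fold change of -1.50, with an SE of 0.35 and estimated means of 1405 in ev and 496 in div1. AT3G16850 was the other called lower gene, at -0.79 (SE 0.27) in the authors' deposited table. By a wider note, of the male gametophyte, pollen or a pollen stage, 4 of the 7 family members that carry it (AT3G07820, AT3G07850, AT3G14040 and AT2G43870) were called higher and 0 lower. Among the other 60, 3 were higher and 2 lower, counts that include chosen genes and so describe only. Those 3 are PGA4 and QRT2, whose notes give 14 and 9 plant structures without naming them, and AT2G33160, whose note names none. The split therefore depends on how the notes are worded.

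**Figure D2:**
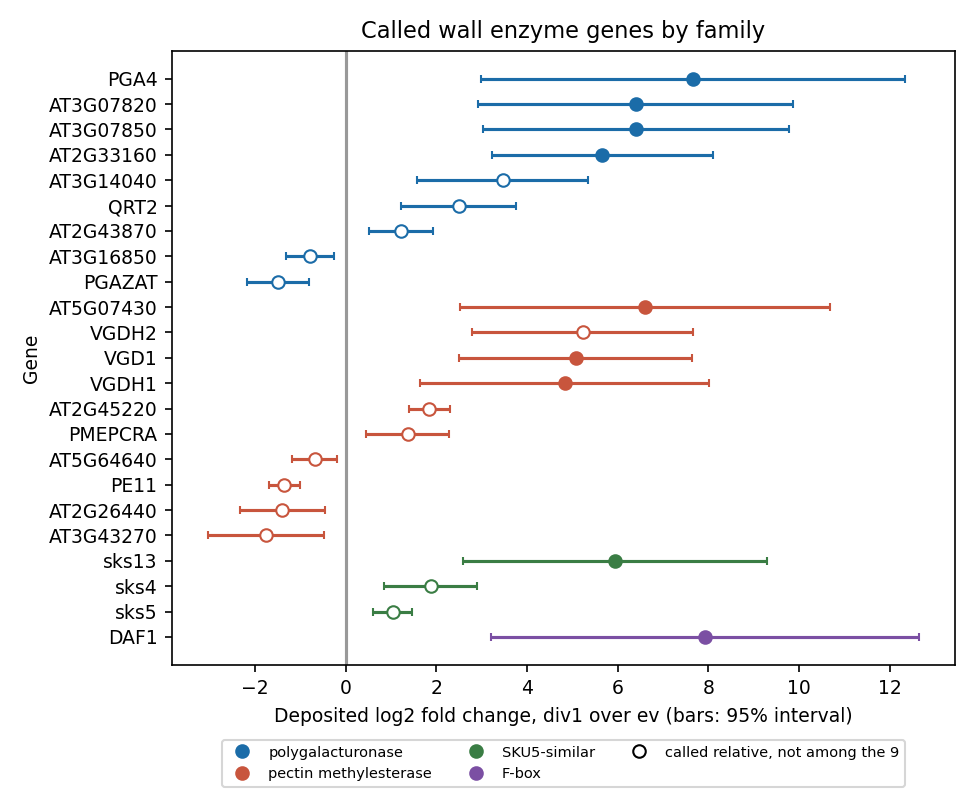
Deposited log2 fold change of every called polygalacturonase, pectin methylesterase and SKU5-similar gene and of DAF1, div1 over ev, with 95% intervals. Filled points are the 9 genes, all between 4.83 and 7.93, and open points are called relatives, of which VGDH2 at 5.23 is the highest and AT3G43270 at -1.76 the lowest.

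Among the pectin methylesterases, VANGUARD1, VGD1 (AT2G47040, chr2:19327853-19330197, minus strand), is an enzyme that pollen tubes need for normal growth. Its estimated means were 3.21 normalised counts in ev and 108 in div1, and the authors' deposited table gave a log2 fold change of 5.08, with an SE of 1.31. At the lower end of the 95% interval, the fold would be 5.67. VGDH1 (AT2G47030, chr2:19324134-19326484, minus strand) is its neighbour and closest relative, and had estimated means of 2.85 and 81.0. Its log2 fold change, 4.83 with an SE of 1.63, was the smallest of the 9 by the authors' deposited table. Its fold at the lower end of the interval was 3.10. AT5G07430 (chr5:2352436-2354338, plus strand) carries a catalytic pectinesterase domain without belonging to the VANGUARD group, and had estimated means of 0.475 in ev and 46.2 in div1, and the authors' deposited table gave a log2 fold change of 6.60, with an SE of 2.08. The ev estimates of VGD1 and VGDH1 are the highest of the 9 genes, each near 3 counts a library.

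VGDH2 (AT3G62170), the other gene of the VANGUARD group and not one of the 9, was listed at 5.23 (SE 1.24) on the log2 scale by the authors' deposited table, with estimated means of 1.52 and 57.3. All 3 genes of that group were therefore called higher. The family split in direction beyond them: of 67 annotated pectin methylesterases 6 were called higher, which is 8.96%, and 4 lower, with 57 not among the called genes. The most abundant called member, AT2G45220, rose by 1.85 log2 units (SE 0.23) by the authors' deposited table, from an estimated 3224 to 11600 normalised counts per kilobase of exon, where VGD1 went from 1.42 to 48.0. PMEPCRA was also higher, at 1.37 (SE 0.47), while PE11 fell, at -1.35 (SE 0.17), as did AT2G26440 at -1.40 (SE 0.48), AT3G43270 at -1.76 (SE 0.65) and AT5G64640 at -0.69 (SE 0.26), all from the authors' deposited table. Of the 15 family members with the wider note of male gametophyte or pollen, 4 (the 3 VANGUARD genes and AT5G07430) were called higher and 0 lower. Of the other 52, 2 were higher and 4 lower. The notes of those 2, AT2G45220 and PMEPCRA, give 9 and 25 plant structures without naming them, so this split too depends on the wording.

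Proteins that block pectin methylesterases share an inhibitor domain with inhibitors of invertase. Of 79 annotated genes with that domain and no catalytic one, 5 were called higher, or 6.33%, and 0 lower. The 9.14% called higher is of tested genes only, so the 2 shares are not ranked. By the authors' deposited table, the log2 fold changes were 1.91 (SE 0.28) for C/VIF2, which is named as an inhibitor of fructosidase, 1.83 (SE 0.58) for AT5G62360, 1.73 (SE 0.51) for AT3G47380, 1.73 (SE 0.53) for AT1G10770 and 1.57 (SE 0.25) for AT5G62350. None reached the range of the 9 genes. Of the other pectin enzymes, 0 of 26 pectate lyases and 0 of 8 rhamnogalacturonan lyases were called, and 1 of 12 pectin acetylesterases (AT2G46930, -0.65 in the authors' deposited table) was called lower. Arabinogalactan proteins are another wall family, and of 43 annotated genes 0 were called higher and 2 lower. Those were AGP5 at -1.18 (SE 0.22) and AGP2 at -0.69 (SE 0.15), from the authors' deposited table.

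The sks13 gene (AT3G13400, chr3:4354923-4357482, plus strand, 4 exons) is a SKU5-similar gene noted from pollen. Its estimated means were 1.64 normalised counts in ev and 101 in div1, and the authors' deposited table gave a log2 fold change of 5.95, with an SE of 1.71. Of 19 annotated SKU5-similar genes 3 were called, all higher, which is 15.8% beside 9.14% of all tested genes, a count too small to set apart. The other two had smaller changes, sks5 at 1.04 (SE 0.22) with estimated means of 1145 and 2347, and sks4 at 1.87 (SE 0.52) with 19.7 and 72.1, from the authors' deposited table. The closest relative of sks13 by protein, sks14 (88.7% identical), was not among the called genes, and neither was sks11, which lies 1526 bases from it.

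DAF1 (AT3G62230, chr3:23031531-23033146, plus strand, 1 exon) is named in the annotation as DUO1-activated F-box 1. The authors' deposited table gave it a fitted log2 fold change of 7.93, with an SE of 2.41 and against an ev level under the floor, so its size is not fixed. Its overall mean, 23.1 normalised counts, was the lowest of the 9. The estimated means were 0.189 in ev and 45.9 in div1. Other F-box genes had smaller values. Of 627 annotated ones, 26 were called higher, or 4.15%, and 11 lower, beside 9.14% of tested genes called higher, a share on another base. Those called had a median log2 fold change of 0.57 in the authors' deposited table. The highest value apart from DAF1 was 2.84. DUO1 itself is in a list of 10 pollen transcription factors of which 0 were called. Of 14 further DUO1 targets of the male germline, among them MGH3, HAP2, GEX2, DAZ1 and DAZ2, 0 were called. At an unadjusted p under 0.05 these 2 lists could not be counted, since only genes past the adjusted threshold were available.

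Further lists of pollen and anther genes are set beside the 9.14% of all tested genes that were called higher. Of 30 genes of the pollen tube wall and its signalling, among them PPME1, AGP6, AGP11, ANX1, ANX2 and RALF4, 1 was called, AT2G15880, a leucine-rich repeat gene at 1.38 (SE 0.44) in the authors' deposited table, a share of 3.33%. Of 16 anther and tapetum genes 1 was called, which was QRT2. Of 553 genes whose notes begin with mature and germinated pollen, 42 were called higher, 7.59%, and 12 lower, and without the 6 chosen ones the counts were 36 and 12. The number of these 553 that were tested is unknown, so the 7.59% and the 9.14% have different bases and are not ranked. Over annotated protein-coding genes on the nuclear chromosomes, 1635 of 27443 were called higher. Of the 42 called genes with a log2 fold change of at least 4, 10 carry the note, 6 of them among the 9. Beside the chosen ones, 4 of them were AT1G22110 at 7.05 with an ev estimate under the floor, AT3G28750 at 6.37, AT3G28830 at 5.49 and VGDH2 at 5.23, all from the authors' deposited table. The median log2 fold change of the 48 called carriers outside the 9 was 0.75, against 0.41 for all called genes.

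**Figure D3:**
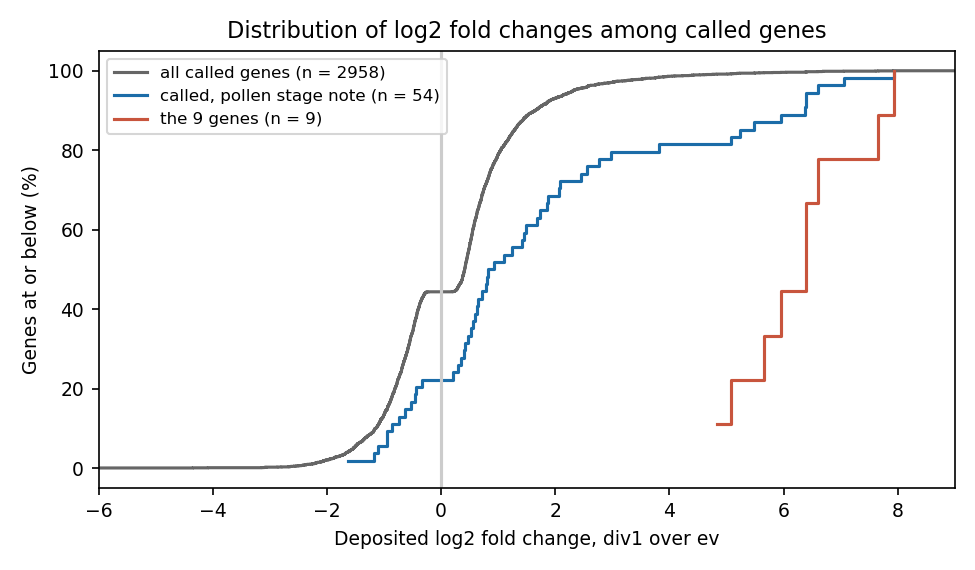
Cumulative share of genes (%) at or below each deposited log2 fold change, div1 over ev, for all 2958 called genes, the 54 called genes noted from mature and germinated pollen and the 9 genes. The 9 genes start at 4.83, and the curve of the 54 lies right of that of all called genes, with 12 of the 54 below 0.

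The marker lists of leaf cells gave no call. Of 12 mesophyll, 6 guard cell, 6 epidermis and 6 vascular markers 0 were among the called genes, and no level of theirs was available, so the labelled leaf tissue could not be checked against them. In bulk RNA fewer cells of a type and less RNA per cell cannot be told apart. Whether anther or pollen material differed between libraries was not tested.

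The deposited standard errors of the 9 genes were very large. They ran from 1.24 to 2.41 on the log2 scale with a median of 1.72, against 0.189 over all called genes, and all 9 lay within the 23 largest of the 2958 called genes, by the authors' deposited table. Of 116 other called genes with overall means in the range of the 9, the median was 0.635, and 10 were at or above the lowest of the 9. From each standard error and the 2 estimated means a dispersion was solved, and its square root is the coefficient of variation between libraries that the authors' model used. For the 7 genes where it could be estimated it was 1.11 for AT2G33160, 1.22 for VGD1, 1.53 for AT3G07820, 1.53 for AT3G07850, 1.54 for VGDH1, 1.58 for sks13 and 2.14 for PGA4. A group of 4 libraries with all its counts in 1 of them has a sample coefficient of 2. The values above are on another scale, since each comes from 1 model dispersion shared by both groups. They do not say in how many libraries the reads lay. In 114 other called genes with overall means between 23.1 and 57.6, the median was 0.567, and 7 of them, 6.14%, reached the lowest value of the 9 genes. The 5 of these with a log2 fold change at least as large as the lowest of the 9 had a median of 1.35, near the 1.53 of the 7 genes. They were AT3G28750 (1.66), AT3G28830 (1.64), AT4G27810 (1.35), VGDH2 (1.07) and AT1G17285 (0.448). In that range 8 genes outside the 9 were noted from mature and germinated pollen, VGDH2, AT3G28750 and AT3G28830 among them, and had coefficients between 0.503 and 1.66, with a median of 0.969. Which libraries carried the reads, and whether the same libraries did so for all 9 genes, was not tested, since no value per library was available.

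**Figure D4:**
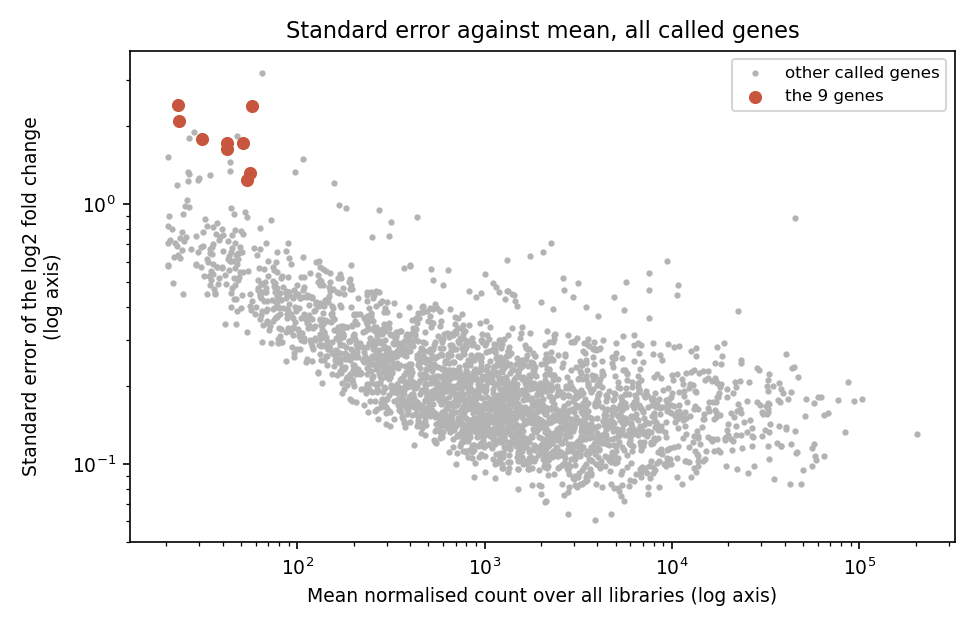
Deposited standard error of the log2 fold change against the mean normalised count over all libraries for the 2958 called genes, both on log axes. The 9 genes (large points) lie at the left and top, with means between 23.1 and 57.6 and standard errors between 1.24 and 2.41, where 10 of 116 other called genes of that range of means are at or above the lowest of the 9.

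By sequence the 9 genes are not one tight family. Over aligned protein positions, gaps left out, PGA4 was between 41.7% and 45.7% identical to each of the other 3 chosen polygalacturonases. AT3G07820 and AT3G07850, which lie 7450 bases apart, were 47.4% identical. The 2 genes between them, AT3G07830 and AT3G07840, are polygalacturonases too, and 0 of these 2 were called, although AT3G07830 is 80.8% identical to AT3G07820. AT3G07850 and AT3G14040 were 97.7% identical in protein and 97.5% in coding sequence, the closest pair of those compared, and 25.9% of the 50-base windows of AT3G07850 and 2.71% of its 100-base windows occur in AT3G14040. The read length is not given in the sources, and how far reads were shared or split between the pair is unknown. In div1 the estimated levels of this pair were 48.2 normalised counts per kilobase of exon for AT3G07850 and 45.2 for AT3G14040. In ev they were 0.571 and 4.11, a difference that was not tested, and the 95% intervals of the 2 log2 fold changes, 3.02 to 9.78 and 1.57 to 5.35, overlap.

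The longest run of coding bases without a difference between the near-identical pair shows where reads could not be told apart. It spans coding positions 771 to 889 of AT3G07850, and is followed by the aligned bases of AT3G07820 and PGA4, in which capitals mark bases that differ from AT3G07850, 41 and 46 in number.
AT3G07850 and AT3G14040: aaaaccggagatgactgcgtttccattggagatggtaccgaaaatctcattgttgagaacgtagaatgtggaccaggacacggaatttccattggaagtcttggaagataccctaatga
AT3G07820: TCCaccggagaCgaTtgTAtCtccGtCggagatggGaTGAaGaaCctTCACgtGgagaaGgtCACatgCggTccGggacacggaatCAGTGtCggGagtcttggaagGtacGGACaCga
PGA4: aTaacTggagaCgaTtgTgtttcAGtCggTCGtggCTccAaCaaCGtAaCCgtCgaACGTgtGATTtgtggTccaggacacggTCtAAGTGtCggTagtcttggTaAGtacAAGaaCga

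VGD1 and VGDH1 were 87.9% identical in protein and 91.8% in coding sequence, and lie on the same strand with 1368 bases and 0 genes between them. Only 60 windows of 50 bases were shared, 2.72% of those of VGD1, and 0 windows of 100 bases, so most reads of that length or longer carry a difference. VGDH2, on another chromosome, was 75.1% identical to VGD1 and shared 0 windows of 50 bases with it. The longest run shared by VGD1 and VGDH1 covers coding positions 1579 to 1652 of VGD1, and in the aligned VGDH2 bases the 23 capitals mark differences.
VGD1 and VGDH1: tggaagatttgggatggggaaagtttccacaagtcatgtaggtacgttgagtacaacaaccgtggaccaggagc
VGDH2: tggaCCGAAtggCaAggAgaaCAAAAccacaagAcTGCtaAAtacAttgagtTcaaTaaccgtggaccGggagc

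AT5G07430 was 35.8% identical to VGD1 over aligned protein positions, and its closest relative, AT5G07420 (78.1%, 822 bases away), was not among the called genes. The closest called F-box protein to DAF1 was AT3G51530 at 32.5% identity, with a log2 fold change of 0.46 in the authors' deposited table. DAF1 lies 13021 bases from VGDH2 with 5 coding genes between them, of which 1, AT3G62200, was called, and it was lower.

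**Figure D5:**
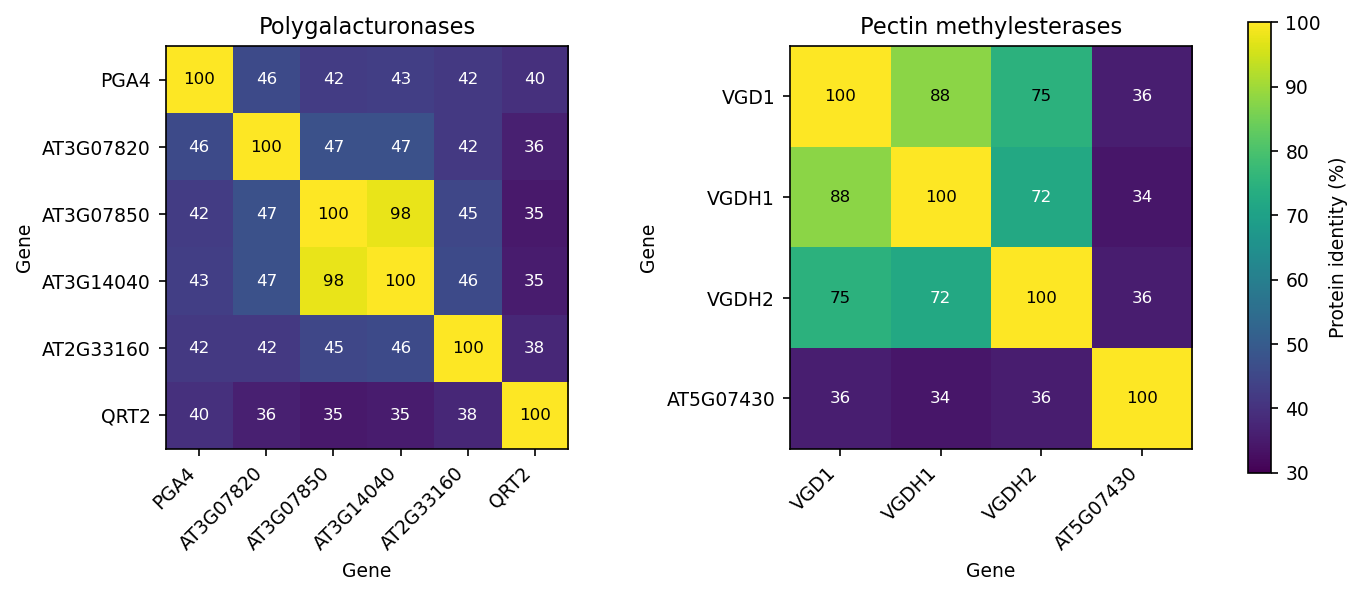
Protein identity (%, global alignment) between called polygalacturonases (left) and pectin methylesterases (right), coloured from 30% to 100%. AT3G07850 with AT3G14040 and VGD1 with VGDH1 are the closest pairs drawn, VGDH2 shares 75.1% and 72.3% with VGD1 and VGDH1, and all other pairs drawn lie under 50%.

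None of 4 motifs searched stood within 250 bases upstream of all 9 genes. MYB-related factors of the DIV1 kind are known to bind TATCC or GATAAG elements, DUO1 binds sequences around AACCG, and GTGA is an element of pollen promoters. These 4 were searched on both strands in the 250 bases before the annotated gene start, and CTTATCC would count for both of the first pair. GATAAG was found in 2 of the 9 genes (VGD1 and AT2G33160), in 12.3% of 27443 genes and in 18.8% of 1635 genes called higher. TATCC was in 0 of the 9, in 28.8% of all genes and in 35.5% of those called higher. AACCG was in 3 (PGA4, sks13 and DAF1), against 23.2% of all genes, and GTGA in 7, against 77.5%. With 9 genes these counts are descriptions, and a window without a match says only that the letters are not in it.

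The windows of VGD1 and VGDH1 are printed because these neighbouring genes changed alike and only 1 of them holds GATAAG. They are chr2:19330198-19330447 and chr2:19326485-19326734, read on the minus strand of TAIR10.1, and the capitals mark the match, which is on the opposite strand 199 bases before the start of VGD1. The window of DAF1, chr3:23031281-23031530 on the plus strand, is printed because it holds AACCG on each strand, 90 and 74 bases before the start, in capitals.
VGD1 upstream: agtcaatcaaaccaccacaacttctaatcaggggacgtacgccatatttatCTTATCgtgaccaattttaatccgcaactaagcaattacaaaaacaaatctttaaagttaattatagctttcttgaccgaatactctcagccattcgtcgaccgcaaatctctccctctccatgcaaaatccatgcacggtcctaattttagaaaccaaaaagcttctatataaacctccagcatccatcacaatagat
VGDH1 upstream: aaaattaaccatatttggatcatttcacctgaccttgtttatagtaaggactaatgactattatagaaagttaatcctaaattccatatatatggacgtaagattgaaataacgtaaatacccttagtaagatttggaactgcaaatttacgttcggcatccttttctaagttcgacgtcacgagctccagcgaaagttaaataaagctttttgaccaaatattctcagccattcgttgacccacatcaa
DAF1 upstream: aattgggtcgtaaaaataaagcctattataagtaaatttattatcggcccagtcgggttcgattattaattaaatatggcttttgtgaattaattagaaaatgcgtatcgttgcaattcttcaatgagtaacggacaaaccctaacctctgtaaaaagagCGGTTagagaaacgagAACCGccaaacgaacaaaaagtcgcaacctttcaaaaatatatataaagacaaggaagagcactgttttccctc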

How the data were processed

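Poly(A) RNA of 8 libraries (4 div1, 4 ev, grouped by sample titles) was sequenced by the authors. Per the submitters' processing notes, DESeq2, featureCounts 2.0.1, HISAT2 and fastp 0.21.0 were used with TAIR10. Their settings are not given in the sources. Per the file headers, the deposited table gives for each gene a mean normalised count (a signal averaged over all libraries), a log2 fold change and its SE, a test statistic (score) and p-values, raw and adjusted. Its largest adjusted p was 0.0499, so only called genes are in it. The depth of each library is unknown, and the deposited standard errors are the sole measure of precision. No test of samples was run.

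The number of genes tested, 18010, is the largest adjusted p times rank divided by p, which 2548 genes gave to within 0.5. Group means were solved from the overall mean and fold change, and dispersions from the SE by a negative binomial Wald formula where both means reached 0.5. These steps were tested on simulated data. Intervals are at 95%. Names, domains, notes and sequences came from the RefSeq annotation and genome of TAIR10.1 (2957 identifiers matched, 1 did not). Coordinates are TAIR10.1, read by gene identifier, with none taken from the deposited table. Families were read by domain text of the coding notes, and SKU5-similar and arabinogalactan protein genes by name. Identities used global alignment in Biopython 1.88 and are shares of aligned positions, with gaps left out. Python 3.11.15, pandas 2.3.3, numpy 2.4.6 and matplotlib 3.10.9 were used.

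Named are all 9 genes, every called gene of each wall family and list up to 8 by adjusted p, the closest called relative of each of the 9, and DIV1. Genes of similar mean and fold, uncalled relatives and pollen-noted genes above a log2 fold change of 4 were named after their values were seen. The 9 genes and all lists were chosen with earlier results of these data known.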

Additional observations from a re-analysis of the deposited data

How the results depend on the processing

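The direction of all 9 genes is as deposited, and no value per library was available, so leaving out libraries in turn and per-library normalisation could not be run. No paired analysis was possible because the table holds no values per library. Of 66 alternative counts 43 stayed within 1.5 times of the reported count and 23 did not. At an adjusted p under 0.01, 6 of the 9 genes were called, and all 9 had a log2 fold change of at least 1 even after 2 SE were taken off. With a mean of at least 100 required, 0 of the 9 were left, as were 1 polygalacturonase, 2 pectin methylesterases, 3 inhibitor genes and 1 SKU5-similar gene called higher, 22 pollen-noted genes and 0 anther genes. At an adjusted p under 0.01 the counts were 1 polygalacturonase lower, 3 pectin methylesterases higher and 1 lower, 27 pollen-noted genes higher and 0 of the pollen tube list. With a log2 fold change of at least 1 in size required, 1 polygalacturonase was lower, and 26 pollen-noted genes were higher and 3 lower. A wider wording of the family search, chosen after seeing the data, gave 11 genes higher by pectinesterase text. That wording did not leave out genes with only the inhibitor domain, so the 11 need not all be enzymes. A multicopper oxidase domain in place of the SKU5-similar name gave 3 genes higher and 1 lower. The 1 lower gene is not among those named SKU5-similar. With each fold lowered by 2 SE, 0 genes had an ev estimate under the floor, against 4 as deposited, and ev estimates ran from 4.80 for DAF1 to 21.2 for VGDH1. In windows of 500 bases AACCG was found in 5 and TATCC in 1 of the 9 genes, and in 1000 bases GATAAG was in 5, TATCC in 5 and AACCG in 6. GTGA was in all 9 at both lengths, against 94.9% and 99.7% of all genes. Low counts and large standard errors limit the sizes given: the 9 directions rest on transcripts under 115 estimated counts a library.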
